A study of Mus musculus with 23 samples.

Results

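Granulocyte-monocyte progenitors (GMPs) of mouse bone marrow (BM) were compared between wild-type (WT) mice and mice with either of 2 amino acid changes at the same tyrosine of STAT5B, Y665H and Y665F. Members were droplet barcodes of 6 single-cell RNA-sequencing libraries, chosen by their own counts of 9 genes. A barcode was kept with at least 500 detected genes and at most 10% of its unique molecular identifiers (UMIs, counted RNA molecules) in mitochondrial genes. A kept barcode was called a GMP with at least 3 UMIs of Elane, Prtn3 and Ctsg together, at least 2 UMIs of Mpo, no UMI of Gata1, Cd79a or Csf1r, and less than 5% of its UMIs from S100a8 and S100a9. The rule selected 8748 GMPs among 69444 kept BM barcodes, from 75993 deposited BM barcodes and 139967 in the 16 expression libraries of the series. GMPs numbered 414 and 864 in WT replicates 1 and 2, 965 and 933 in Y665H, and 2334 and 3238 in Y665F.

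The study asked how both changes, which occur in human leukemias, act on blood formation. The labels give all mice as C57BL/6, aged 2 months, while the methods name C57BL/6N for the making of the alleles, and each genotype gave 2 BM libraries, so n = 2 throughout. The Y665H allele was made with an adenine base editor and the Y665F allele with Cas9 and an oligonucleotide donor, in the mouse Stat5b gene itself, so that every cell of a mutant mouse carries the change. The labels do not give the zygosity of the BM mice or how many mice gave a library, and p-values measure the spread between these libraries, which may be technical.

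Several features of the libraries bear on all results. Replicate 1 of each genotype expressed Xist (774, 244 and 895 CPM, the UMIs of a gene scaled to a common library total, over all barcodes of WT, Y665H and Y665F) and hardly any Ddx3y (0, 0 and 0.0179 CPM), while replicate 2 had 0.108, 0.116 and 0.586 CPM of Xist and 23.8, 22.9 and 47.2 CPM of Ddx3y. Each genotype therefore held 1 female-type and 1 male-type library, although the methods of the study name male mice. The sources also differ on the chemistry, a 3′ kit in the labels and a 5′ kit in the methods. Depth per GMP differed, with a median of 3776.5 and 3382.5 UMIs in WT, 4677 and 2730 in Y665H and 4195 and 3031.5 in Y665F. The shallowest barcode held 1179 UMIs in Y665F replicate 2 and 500 in every other library. GMP barcodes shared by any 2 of the libraries numbered 0 to 11 over 15 pairs. Mature marrow cells were scarce: no kept barcode had 10% of its UMIs in hemoglobin genes, 0% to 1.03% had 5% in S100a8 and S100a9, and Kit was detected in 14.4% to 39.0%, so the libraries did not have the composition of whole marrow. The labels do not name an enrichment.

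GMPs are committed progenitors that divide and give rise to neutrophils and monocytes, and they are known for making the enzymes of primary granules. Their growth and survival depend on cytokines such as GM-CSF and IL-3. The receptors of these cytokines signal through the kinase JAK2, which phosphorylates STAT5A and STAT5B, and phosphorylated STAT5 pairs through its SH2 domain, the domain that holds the changed tyrosine. STAT5 pairs bind DNA at TTCNNNGAA and induce, among others, the feedback inhibitors Cish, Socs2 and Socs3.

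Sequences at the edited site are given first, because the count tables hold whole-gene counts and the edited bases were not read. The study lists only a guide for Y665H, so no edited sequence of that allele is shown. The codon for this tyrosine is part of Stat5b exon 16 of 19, at chr11:100787291-100787293 of GRCm38 on the minus strand. The reference stretch (chr11:100787279-100787305) and the same stretch of the Y665F donor are written 5′ to 3′ on the coding strand with that codon in capitals, and differ by A14T and C15T, counted from 1 at the 5′ end of the stretch. The study also describes a silent C-to-G change in the donor, which is not among the differences of this stretch. The guide, which the study lists for both alleles, matches the plus strand at chr11:100787287-100787309 and has its PAM in capitals.
Stat5b reference: ggggacctgaatTACctcatatatgtg
Y665F donor: ggggacctgaatTTTctcatatatgtg
Stat5b guide: tgaggtaattcaggtcccccAGG

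A second set shows TTCNNNGAA, in capitals, at promoters of feedback genes of STAT5 that are described with their levels. The motif reads the same on both strands and was searched in RefSeq promoter windows (GRCm38.p6, 250 bases before to 50 bases after a transcription start). It occurred in 8.30% of all 32851 windows and at 9.55% of the 27025 genes with a window. Of 23 genes on a list of STAT5 target and feedback genes, 17 had a window and 5 held the motif (Bcl6, Cish, Gzmb, Lta and Socs3). The Cish window held it at 0 and at 11 bases past the start (chr9:107296654-107296683, plus strand) and the Socs3 window at 154 bases before it (start −154, chr11:117969502-117969530, minus strand), while the Socs2 window held no match. A match is a description of the letters and not of binding.
Cish promoter: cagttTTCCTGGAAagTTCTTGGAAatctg
Socs3 promoter: gaaaccagccTTCTTAGAAgggagggggg

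The gate genes described the members, and since they chose them no test was made. Elane, neutrophil elastase, stood at 2639 and 4460 CPM in GMPs of the WT libraries, 5747 and 4382 in Y665H and 2605 and 1599 in Y665F. Mpo, myeloperoxidase, stood at 1863 and 1474 CPM in the WT libraries, 1760.1 and 1409 in Y665H and 1512 and 1359 in Y665F. Prtn3, proteinase 3, ranged from 3707 to 5214 CPM in the WT and Y665H libraries and was 3160.1 and 1619.8 CPM in Y665F, and Ctsg, cathepsin G, ranged from 430.4 to 589 CPM over all 6. Y665F replicate 2 was lowest for Elane, Prtn3 and Mpo. The 4 genes stood above the level of the other kept barcodes of the same library everywhere, by 7.32- to 19.4-fold in WT and Y665H and by 2.76- to 6.49-fold in Y665F, where the other barcodes also held more Mpo (256.2 and 397 CPM, against 104 to 235 CPM). These ratios follow in part from the gate, which used the same genes. Gate genes made up a median of 0.524% and 0.694% of the UMIs of a WT GMP, 0.825% and 0.763% in Y665H and 0.438% and 0.343% in Y665F.

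Many members lay close to the thresholds. In Y665F replicates 1 and 2, 245 and 645 GMPs had exactly 3 UMIs of Elane, Prtn3 and Ctsg, and 264 and 740 barcodes that met the other criteria had 2, just outside. In WT and Y665H, 48 to 62 GMPs had 3 and 38 to 76 barcodes had 2. For Mpo, 747 and 1204 Y665F GMPs had exactly 2 UMIs and 1704 and 1993 barcodes had 1, against 132 to 304 and 232 to 474 in the other libraries. These are counts and not shares, and the libraries held 2334 and 3238 GMPs in Y665F against 414 to 965 in WT and Y665H. GMPs held a median of 12 and 23 UMIs of the granule genes and Mpo in WT. It was 36 and 21 in Y665H and 15 and 9 in Y665F. As a measure of granule RNA outside GMPs, barcodes with at least 2 UMIs of the B-cell gene Cd79a met the granule and Mpo limits in 4.76% and 2.60% of cases in WT, 4.42% and 3.31% in Y665H and 8.09% and 20.7% in Y665F (28 of 135 barcodes in replicate 2). Gene results between genotypes were therefore also computed, other than the comparison of GMPs with other progenitors, with a stricter gate (at least 10 UMIs of the granule genes and 5 of Mpo, which left 138 and 347 WT, 571 and 293 Y665H and 880 and 766 Y665F GMPs) and with the gate genes at 1% or more of the UMIs (83 and 301 WT, 408 and 346 Y665H, 455 and 304 Y665F). The second of these was chosen after the data were seen.

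**Figure D1:**
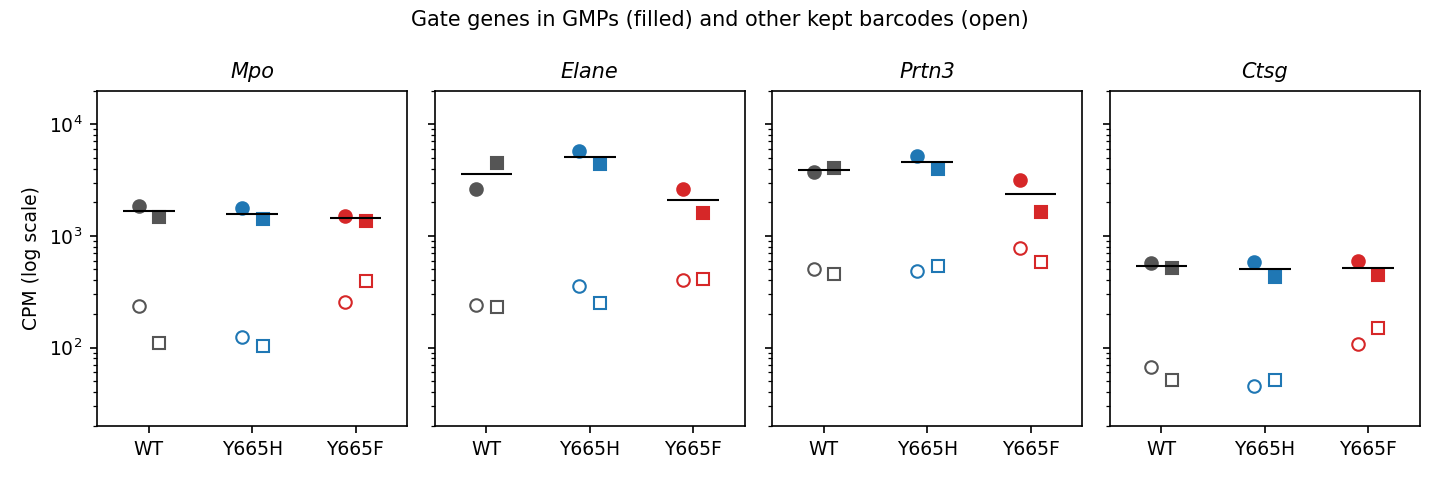
Level (CPM, log scale) of Mpo, Elane, Prtn3 and Ctsg in GMPs (filled) and in all other kept barcodes (open), 1 point per library by genotype, circles for replicate 1, squares for replicate 2 and a line at the GMP mean. GMPs lie above the other barcodes in all 6 libraries, and the gap is narrowest in Y665F replicate 2, where Elane stood at 1599 and 415 CPM.

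The share of GMPs among kept barcodes was 10.7% and 8.40% in WT (exact binomial 95% intervals 9.75% to 11.7% and 7.87% to 8.95%, which cover counting error only), 10.4% and 8.88% in Y665H, and 13.9% and 17.3% in Y665F (13.4% to 14.4% and 16.8% to 17.9%). The means were 9.55% ± 1.63 (SD, n = 2), 9.65% ± 1.10 and 15.6% ± 2.42. Both Y665F libraries lay above the other 4, by 6.04 percentage points over WT on average, and WT and Y665H overlapped. In Y665F replicate 2 the share was below the 20.7% of Cd79a barcodes that met the granule and Mpo limits. It was above that rate in Y665F replicate 1 (8.09%) and in WT and Y665H (2.60% to 4.76%). The part of RNA from other cells in the share was not tested. The libraries did not follow the order Y665H, WT, Y665F beyond chance (Jonckheere-Terpstra statistic, two-sided exact permutation p = 0.178, where 0.0222 is the smallest p that 6 libraries allow). The share depended on depth and on the gate. With every barcode thinned to 2000 UMIs and shallower ones left out, it was 10.7% and 11.03% in WT, 11.3% and 11.6% in Y665H and 12.3% and 16.8% in Y665F (difference 3.69 points, exact permutation p = 0.578). With the stricter gate the means were 3.47%, 4.48% and 4.66% (exact permutation p = 0.578), and with gate genes at 1% or more of UMIs they were 2.54%, 3.85% and 2.17%, so that Y665F was then 0.371 points below WT. Thinned barcodes under this last gate gave 5.02%, 5.83% and 3.78%, a difference of −1.24 points. This gate was chosen after the data were seen and cuts on the share of gate genes, which was already lower in Y665F GMPs, so no test of it is given. A higher share of GMPs in Y665F was thus seen under some gates and not under others.

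**Figure D2:**
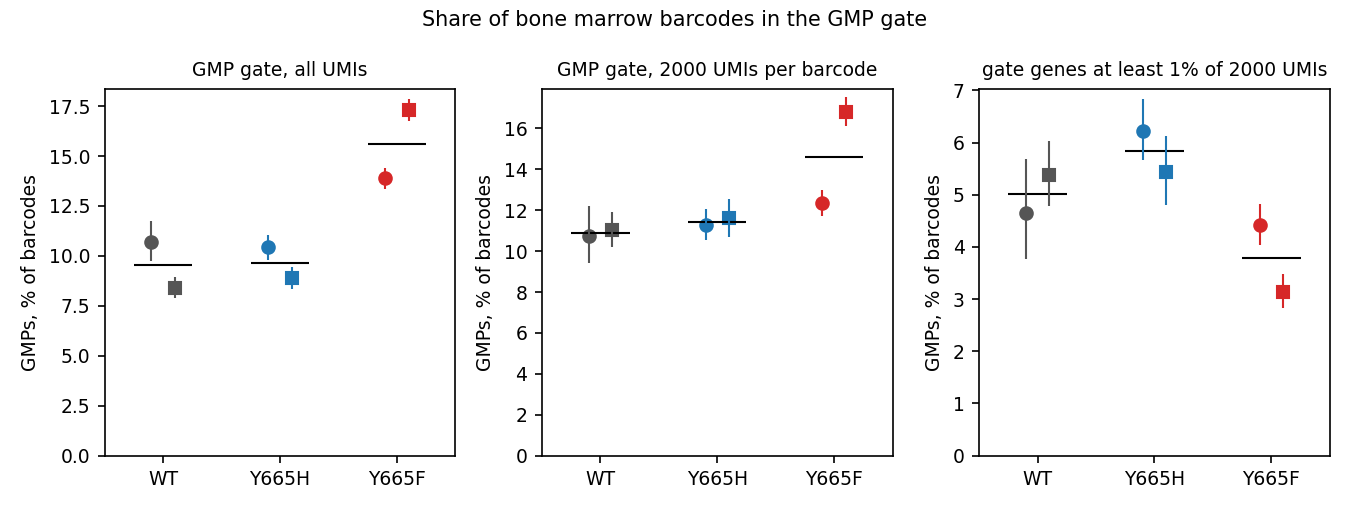
GMPs as a percentage of barcodes by genotype, 1 point per library (circles for replicate 1, squares for replicate 2) and a line at each mean, for all kept barcodes, for barcodes thinned to 2000 UMIs and for thinned barcodes with gate genes at 1% or more of UMIs. Vertical lines are exact binomial 95% intervals. Y665F is highest in the first panel (13.9% and 17.3%) and lowest in the last (4.43% and 3.14%).

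Counts were then summed over the GMPs of each library, which gave between 1864602 and 11365632 UMIs per library, and 10725 genes were tested in 1 edgeR model with the 3 genotypes. The 9 gate genes and the mitochondrial genes were not tested. A gene that is high in 1 genotype can pass the filter on low counts through that genotype alone, so counts and medians over the tested genes of a list describe those genes only. A gene passed when its p, adjusted by Benjamini-Hochberg, was under 0.05, and "rose" and "fell" are used of such genes only. In Y665F against WT, 2254 genes passed (21.0% of those tested): 988 rose (9.21%) and 1266 fell (11.8%). Of these 662 rose (6.17%) and 764 fell (7.12%) by more than 1 on the log2 scale. In Y665H against WT, 0 genes passed (0%), with 382 at an unadjusted p under 0.05. Y665F and Y665H differed in 3849 genes (35.9%), of which 1926 were higher (18.0%) and 1923 lower (17.9%) in Y665F. DESeq2 called 386 genes higher and 991 lower in Y665F than in WT, 1377 in all, so that higher genes were 28.0% of its calls against 43.8% in edgeR. With the stricter gate 2508 genes passed (26.0% of 9635; 11.6% rose and 14.4% fell), and with the 1% gate 1443 (17.9% of 8077; 7.17% rose and 10.7% fell). The edgeR count was 670 without Y665F replicate 2 and 966 without WT replicate 2.

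Fold changes in Y665F followed the length of the transcript. The median log2 fold change over WT was −0.42 in the shortest of 5 length classes of about equal size (83 rose and 513 fell of 2144 genes) and −0.29, 0.05, 0.24 and 0.47 in the next 4 (433 rose and 50 fell of 2144 in the longest). In Y665H against WT the medians were 0.17, 0.02, −0.02, −0.07 and −0.15. Kept barcodes outside the GMPs showed the same in Y665F, from −0.23 to 0.63. In the longest class WT replicate 1 stood with Y665F rather than with WT replicate 2: its genes deviated from the mean of the libraries by 0.28 and −0.40 in WT, −0.36 and −0.42 in Y665H and 0.34 and 0.60 in Y665F (median of log2(CPM + 1)). Genes whose transcripts share more than 10% of their words of 31 bases with other genes numbered 1335, of which 80 rose and 232 fell, and of the other 9383 genes 907 rose and 1032 fell. The part of transcript length and of shared sequence in the results was tested only by refitting. With a length trend per library as an offset 1568 genes passed, and without the genes with shared words 1948 passed. Of the genes named with their values, Aurkb, Cbl, Creld2, Ebf1, H2-Ab1, Herpud1, Ighm, Igsf6, Irf7, Kif11, Klf2, Mecom, Meis1, Pim3, Runx1, Sdf2l1 and Stat5b passed in Y665F against WT and did not pass with the length offset.

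**Figure D3:**
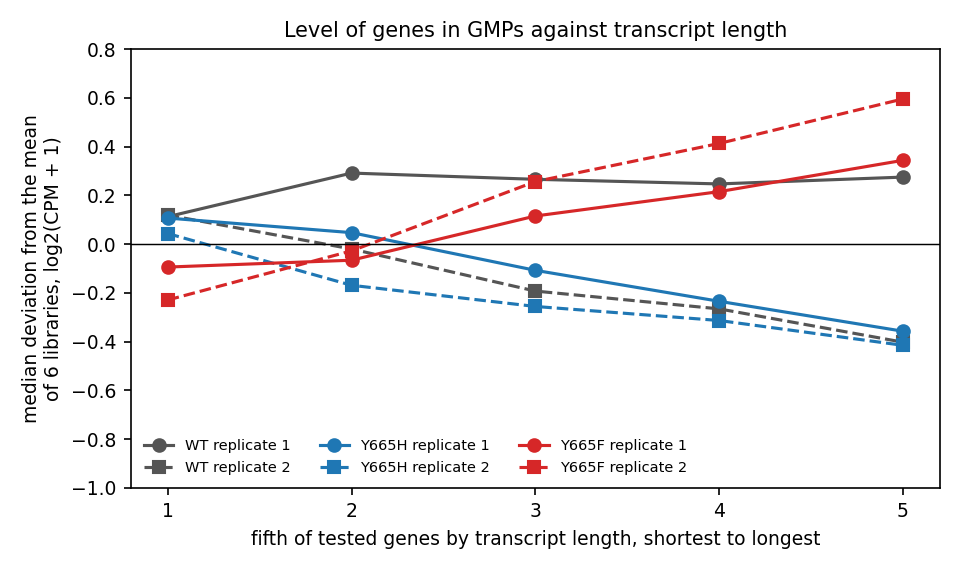
Median deviation of tested genes from the mean of the 6 libraries (log2(CPM + 1)) in GMPs, for 5 classes of genes by transcript length from shortest to longest, 1 line per library. Both Y665F libraries and WT replicate 1 end above 0 in the longest class (0.34, 0.60 and 0.28), and the other 3 libraries end between −0.42 and −0.36.

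Transcripts of Stat5b itself (chr11:100780731-100850724, GRCm38) were present in every library, at 27.4 and 16.8 CPM in the WT libraries, 16.8 and 15.4 in Y665H and 35.0 and 46.6 in Y665F. Both Y665F libraries lay above the other 4. Stat5b rose in Y665F by 0.82 on the log2 scale (SE 0.25, edgeR adjusted p 0.025) and was −0.20 in Y665H (SE 0.28, adjusted p 0.977). Its neighbour Stat5a stood at 19.8 and 14.2 CPM in the WT libraries, 13.3 and 14.4 in Y665H and 28.9 and 42.2 in Y665F and rose by 0.97 (adjusted p 0.014). With the length offset Stat5b was 0.48 (edgeR adjusted p 0.131) and no longer passed, and 15.2% of its words of 31 bases occur in another gene, so reads could be split between the pair. Of 20 JAK, STAT and phosphatase genes tested, 4 rose and 0 fell (median log2 fold change 0.38, against 0.04 over all tested genes, of which 9.21% rose and 11.8% fell). The others were Jak2 (log2 fold change 1.53, SE 0.32, edgeR adjusted p 0.00284), the kinase that binds these receptors, and Cbl (0.74, adjusted p 0.0355, and 0.15 with adjusted p 0.654 under the length offset), a ubiquitin ligase that limits receptor signaling. With the stricter gate 8 of the 20 rose, with the length offset 2 and with DESeq2 1.

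Socs2, Cish and Socs3, the feedback inhibitors, rose in Y665F GMPs. Socs2 (chr10:95385362-95417180), which encodes an inhibitor of cytokine receptor signaling, stood at 1.07 and 0.317 CPM in the WT libraries, 0.832 and 0.686 in Y665H and 76.2 and 73.6 in Y665F. It was almost absent from WT and Y665H GMPs and lay at a like level in both Y665F libraries, with no overlap. WT GMPs held 3 Socs2 UMIs in all and Y665F GMPs 1681, a ratio of 125 per UMI sequenced (95% counting interval 42.9 to 609). The edgeR log2 fold change was 6.78 (SE 0.43, adjusted p 3.27e-09) and 6.73 with the stricter gate. Socs2 was detected in 26.9% and 21.3% of Y665F GMPs, and after thinning to 2000 UMIs in 13.4% and 14%, against 0% and 0.134% of WT GMPs (0 of 289 and 1 of 747). Socs2 was also high in Y665F outside GMPs: in the other kept barcodes it was 5.41 and 4.95 CPM in WT and 107 and 91.0 CPM in Y665F, and in Gata1-positive barcodes 1.46 and 1.79 CPM in WT and 32.9 and 67.6 CPM in Y665F. As a comparison for RNA from other cells, barcodes with Cd79a were also thinned. These had at least 2 UMIs of Cd79a and fewer than 3 of the granule genes. Their median was 1398 to 2389.5 UMIs before thinning left out the shallower ones (23 and 134 in WT, 197 and 30 in Y665F). The 29 and 109 barcodes left in WT held Socs2 in 17.2% and 1.83% of cases. The 112 and 42 left in Y665F held it in 28.6% and 9.52%. The share in GMPs was below that of these barcodes in Y665F replicate 1 and above it in replicate 2, and in WT replicate 1 Socs2 was in 5 of 29 of these barcodes and in 0 of 289 GMPs. The part of RNA from other cells in the Socs2 level of GMPs was not tested.

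Cish, the other early feedback inhibitor, stood at 4.29 and 0.950 CPM in the WT libraries, 1.25 and 2.06 in Y665H and 14.7 and 21.7 in Y665F and rose by 2.88 (SE 0.45, edgeR adjusted p 0.000481). Its Y665F libraries stood above all others. Other kept barcodes held 3.35 and 3.57 CPM of Cish in WT and 29.6 and 28.5 CPM in Y665F. After thinning, Cish was detected in 3.44% and 3.89% of Y665F GMPs. In the Y665F barcodes with Cd79a it was in 7.14% and 2.38% (8 of 112 and 1 of 42). The part of RNA from other cells in its level was not tested. Pim1, a serine/threonine kinase that promotes survival, stood at 88.5 and 30.7 CPM in the WT libraries, 60.7 and 38.4 in Y665H and 187 and 143 in Y665F. It rose by 1.47 (adjusted p 0.00336), and WT replicate 1 was the highest library outside Y665F. Pim1 in the other kept barcodes was 52.8 and 39.1 CPM in WT and 162 and 154 CPM in Y665F. Socs3 stood at 3.75 and 1.58 CPM in the WT libraries, 2.70 and 2.75 in Y665H and 9.57 and 6.07 in Y665F and rose by 1.56 (adjusted p 0.0263). Of 23 listed STAT5 target and feedback genes, 18 were tested, 8 rose and 2 fell, beside 9.21% and 11.8% of all tested genes, with a median log2 fold change of 1.05 against 0.04. Socs2 and Cish, low outside Y665F, passed the filter on low counts through Y665F, so the count is no support for a rise of the list. The other risers were Pim2 (1.81), Osm, which encodes the cytokine oncostatin M (1.98), and the survival genes Mcl1 (1.10) and Bcl2l1 (1.04, adjusted p 0.0458, which passed in only 5 of 18 other settings). Ccnd1, cyclin D1, went the other way, from 29.5 and 19.6 CPM in WT to 2.71 and 5.28 CPM in Y665F, and fell by 2.69 (SE 0.33, edgeR adjusted p 5.44e-05). It was also lower in the other kept barcodes (12.7 and 12.3 CPM in WT, 2.64 and 6.23 CPM in Y665F). Pim3 also fell, by 0.88. Myc (−0.04), Bcl2 (−0.49) and Socs1 (1.07, adjusted p 0.0534) did not pass. With the stricter gate 6 of 17 tested genes rose and 1 fell, with the 1% gate 4 of 13 rose, and with the length offset 9 of 18 rose and 2 fell.

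**Figure D4:**
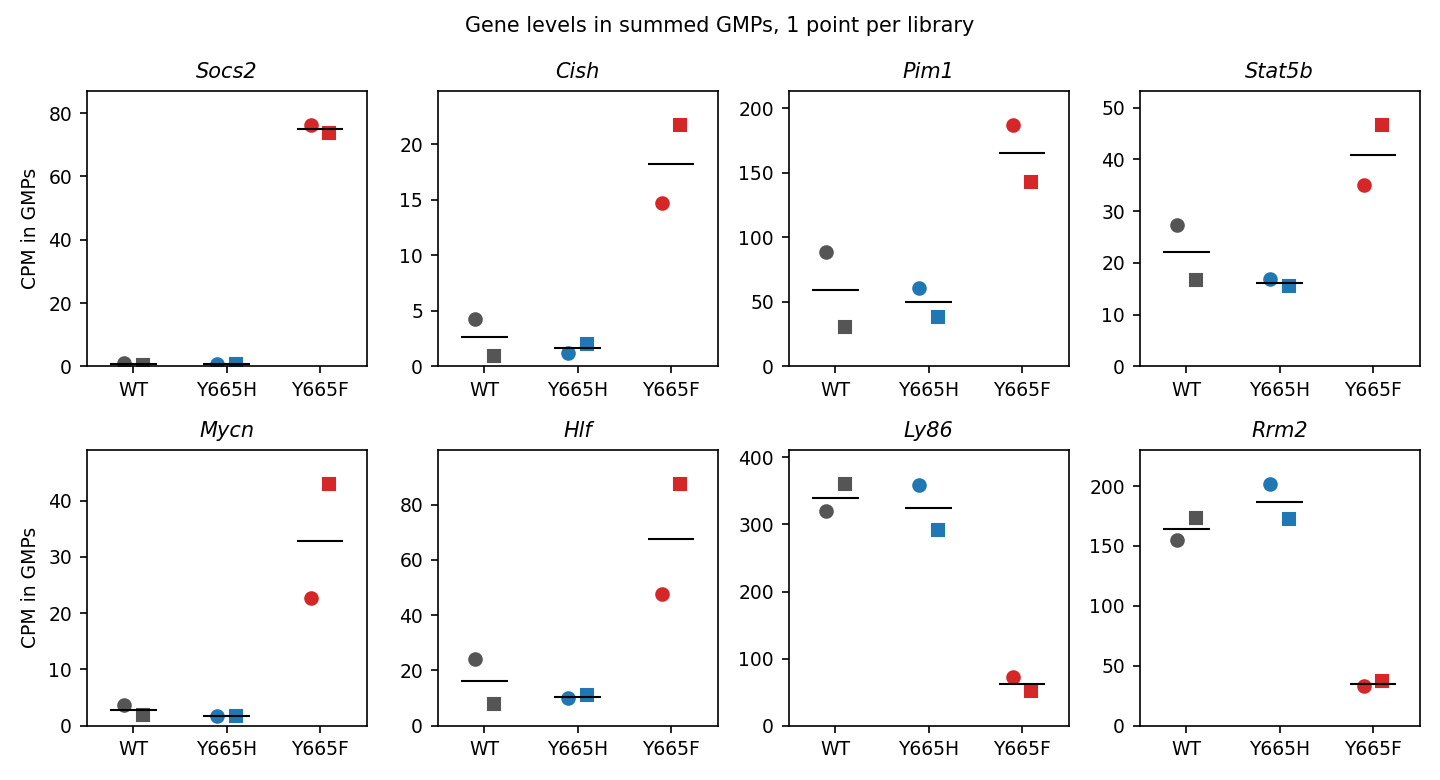
Level in summed GMPs (CPM, linear axes starting at 0) of 8 genes by genotype, 1 point per library (circles for replicate 1, squares for replicate 2) and a line at each mean. Socs2, Cish, Pim1, Stat5b, Mycn and Hlf are highest in both Y665F libraries, and Ly86 and Rrm2 lowest.

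Of 20 tested genes of stem and multipotent progenitor cells, 9 rose and 1 fell in Y665F GMPs, beside 9.21% and 11.8% of all tested genes (median 1.10 against 0.04). Mycn and Mecom, low outside Y665F, passed the filter on low counts through Y665F, so this count too is no support for a rise of the list. Mycn, a MYC family transcription factor of early progenitors, stood at 3.75 and 1.90 CPM in the WT libraries, 1.66 and 1.72 in Y665H and 22.8 and 42.9 in Y665F and rose by 3.50 (SE 0.41, edgeR adjusted p 3.92e-05). Hlf, a transcription factor of stem cells, stood at 24.1 and 7.91 CPM in the WT libraries, 9.98 and 10.98 in Y665H and 47.7 and 87.4 in Y665F and rose by 2.09 (adjusted p 0.000496). In both, the Y665F libraries lay above the other 4. Gata2, also a transcription factor of stem cells and of mast cell and basophil precursors, stood at 25.7 and 15.2 CPM in the WT libraries, 7.90 and 12.7 in Y665H and 65.0 and 92.9 in Y665F (log2 fold change 1.89). Ly6a, which encodes the stem cell antigen Sca-1, rose by 1.91, and Mecom and Meis1 by 1.65 and 1.47. WT replicate 1 held more Meis1 (37.5 CPM) than replicate 2 (7.91 CPM), near the 46.3 CPM of Y665F replicate 1, and with the length offset Meis1 and Mecom did not pass (adjusted p 0.0543 and 0.0565). Sox4 rose by 1.11 and Kit, the receptor of stem cell factor, by 1.09. Cd48, a surface marker that stem cells lack, fell by 1.21. Cd34 (−0.14) and Flt3 (0.03) did not pass. With the stricter gate 9 of 15 rose and 1 fell, among them Ly6a (3.69), Gata2 (2.60) and Meis1 (2.40).

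Of these genes Gata2, Hlf and Kit were also counted by barcode. After thinning to 2000 UMIs, Gata2 was detected in 5.19% and 3.21% of WT GMPs, 2.29% and 2.43% of Y665H GMPs and 12.3% and 15.4% of Y665F GMPs (unthinned 7.49% and 4.98%, 3.73% and 3.75%, and 21.5% and 24.5%). In barcodes with at least 2 UMIs of Cd79a, which should lack it, the Y665F shares were 6.25% and 16.7% (7 of 112 and 7 of 42 barcodes) and the WT shares 0% and 1.83%. Hlf gave 9.44% and 15.6% of Y665F GMPs and 5.54% and 1.47% of WT GMPs. In Y665F it gave 4.46% and 21.4% of the Cd79a barcodes (5 of 112 and 9 of 42). For Gata2 and Hlf the shares in GMPs were thus not above those of the few comparison barcodes in Y665F replicate 2, while in replicate 1 they were above. Kit gave 20.9% and 29.7% of Y665F GMPs, 16.3% and 8.43% of WT GMPs and 17.9% and 16.7% of the Y665F Cd79a barcodes. In Y665F, GMPs were thus above these barcodes in both replicates. The part of free RNA in the rise of these genes was not tested.

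Of 14 tested monocyte and dendritic cell fate genes, 0 rose and 4 fell (median −0.41), where 9.21% and 11.8% of all tested genes did. Counts were also 0 and 4 with the stricter gate, with the 1% gate (of 12) and with the length offset. The gate left out barcodes with a UMI of Csf1r. Among kept barcodes past the granule and Mpo limits these were 98 of 564 and 86 of 1001 in WT. In Y665H they were 166 of 1244 and 53 of 1049, and in Y665F 305 of 2895 and 272 of 3955. The part of this exclusion in the counts was not tested. Ly86, a partner of a Toll-like receptor family protein on monocytes and B cells, stood at 319.6 and 359.9 CPM in the WT libraries, 358 and 291 in Y665H and 72.3 and 51.0 in Y665F. The Y665F libraries were far below the other 4, and Ly86 fell by 2.58 (SE 0.33, edgeR adjusted p 0.000105). Ly86 was also lower in the other kept barcodes (97.3 and 101 CPM in WT, 43.7 and 39.8 CPM in Y665F). It was detected in 36.3% and 45.2% of thinned WT GMPs and in 10.8% and 9.0% of thinned Y665F GMPs (unthinned 41.5% and 55.1%, and 18.3% and 14.4%). Ms4a6c, a monocyte surface gene, stood at 413 and 476 CPM in the WT libraries, 508 and 423 in Y665H and 162 and 134 in Y665F and fell by 1.71 (adjusted p 0.00138), with 21.9% of its words shared with other genes. F13a1, coagulation factor XIII, fell by 1.33 and Ctss, the protease cathepsin S, by 1.18. Irf8, the transcription factor that directs GMPs to the monocyte lineage, did not pass (−0.56, SE 0.26, adjusted p 0.133), at 161 and 133 CPM in WT and 88.9 and 126 CPM in Y665F.

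Of 14 GMP and primary granule genes that the rule did not use, 0 rose and 4 fell (median −0.19), beside 9.21% and 11.8% of all tested genes. Clec12a, a surface lectin of myeloid progenitors, stood at 191 and 253 CPM in the WT libraries, 223 and 165 in Y665H and 65.3 and 78.1 in Y665F and fell by 1.78 (SE 0.31, adjusted p 0.000846). Cst7, a protease inhibitor of granules, fell by 1.61, Hp, haptoglobin, by 1.52 and Igsf6 by 1.17 (adjusted p 0.0966 with the length offset). Ms4a3, a gene typical of GMPs, was 130.3 and 178 CPM in the WT libraries, 218 and 224 in Y665H and 184 and 139 in Y665F and did not pass (−0.08, SE 0.31, adjusted p 0.887). Prss57 (−0.39), Ctsc (−0.20) and Nkg7 (0.31) did not pass either. With the stricter gate 1 rose and 5 fell, and with the 1% gate 1 rose and 4 fell with a median of 0.07, and with the length offset 2 rose and 3 fell. The count of this list, like that over all tested genes, also changed without Y665F replicate 2 or WT replicate 2. The Y665F GMPs held a smaller share of gate genes, as given above, and the part of that share in the fall of these genes was not tested beyond these gates.

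Among S phase genes, 0 rose and 6 of 20 fell (median −0.05), beside 9.21% and 11.8% of all tested genes, and 5 to 7 fell in every fit made for the lists. Rrm2, a subunit of ribonucleotide reductase, stood at 155 and 173 CPM in the WT libraries, 202 and 172 in Y665H and 32.8 and 37.5 in Y665F and fell by 2.36 (SE 0.29, edgeR adjusted p 6.11e-05), with 11.98% of its words shared with other genes. Both Y665F libraries lay far below the other 4. Rrm2 was lower outside GMPs too, at 262 and 208 CPM in WT and 36.8 and 41.9 CPM in Y665F in the other kept barcodes. Gata1-positive barcodes held 342 and 274 CPM in WT and 59.2 and 42.5 CPM in Y665F. Tk1, thymidine kinase, fell by 1.90 from 117 and 137 CPM in WT to 40.3 and 34.1 CPM in Y665F. Gins2, of the replication helicase, fell by 1.62, and the DNA repair and nucleotide genes Ung, Fen1 and Tyms by 1.46, 1.18 and 0.97. None of the other 14, among them Pcna (0.02) and Mcm5 (−0.03), passed. Of 20 genes of G2 and M phase, 1 rose and 3 fell (median −0.07), near the shares over all tested genes (9.21% and 11.8%). The falls were Ccnb2 by 1.87, Cdk1 by 1.11 and Aurkb by 0.91, and Kif11 rose by 0.81 (adjusted p 0.0499, and 0.189 with the stricter gate). Top2a (0.42) and Mki67 (0.56), which have long transcripts, did not pass.

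Of 11 tested of 16 listed BCL2 family genes, 2 rose and 2 fell (median −0.07), beside 9.21% and 11.8% of all tested genes. Mcl1 and Bcl2l1, given above, rose, and Bid and Bak1, which promote cell death, fell by 1.55 (edgeR adjusted p 0.000549) and 0.98 (adjusted p 0.00634).

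Of 22 tested receptors for cytokines and growth factors, 3 rose and 4 fell (9.21% and 11.8% of all tested genes did), with a median of −0.18. Without WT replicate 1 the median was 0.04. The shared beta chain of the GM-CSF, IL-3 and IL-5 receptors, Csf2rb, stood at 16.6 and 14.2 CPM in the WT libraries, 14.6 and 12.7 in Y665H and 48.7 and 34.6 in Y665F and rose by 1.33 (SE 0.27, edgeR adjusted p 0.00248). Of the ligand-specific alpha chains of these receptors, that for IL-5 (Il5ra) was not tested. Csf2ra, the alpha chain for GM-CSF, stood at 61.1 and 50.02 CPM in the WT libraries, 49.1 and 31.9 in Y665H and 25.4 and 17.2 in Y665F and fell by 1.47 (adjusted p 0.000925). Il3ra, for IL-3, stood at 50.4 and 46.5 CPM in the WT libraries, 51.8 and 27.8 in Y665H and 22.3 and 14.6 in Y665F and fell by 1.497 (adjusted p 0.00143). For both alpha chains the Y665F libraries were the lowest 2, with Y665H replicate 2 next above them. Csf2rb shares 19.6% of its words with other genes, so its reads can be split with its near copy Csf2rb2. Ifngr2, of the interferon gamma receptor, and Il10rb, of the IL-10 receptor, fell by 1.17 and 1.28. Csf3r, the G-CSF receptor, did not pass (0.80, adjusted p 0.0626), and neither did Il6ra (−0.23).

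Of 21 tested myeloid transcription factors, 3 rose and 2 fell (median 0.23), near the shares over all tested genes (9.21% and 11.8%). Cebpa, which GMP formation requires, stood at 22.5 and 26.0 CPM in the WT libraries, 26.8 and 28.5 in Y665H and 51.6 and 38.4 in Y665F and rose by 0.75 (adjusted p 0.0483, which passed in 12 of 19 other settings). Runx1 rose by 0.92 (adjusted p 0.102 with the length offset) and Egr1, an immediate early factor, by 1.96. Cebpd fell by 1.14 and Klf2 by 1.16 (adjusted p 0.0493, and 0.126 with the stricter gate). Spi1 (−0.57), Gfi1 (0.39) and Cebpe (−0.13) did not pass.

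Of 18 tested interferon-induced genes 3 rose and 1 fell (median 0.49), beside 9.21% and 11.8% of all tested genes, and 0 of 9 rose and 1 fell once genes with shared words were left out. Ifitm1, which encodes a membrane protein that restricts viruses, stood at 281 and 163 CPM in the WT libraries, 226 and 382 in Y665H and 1883 and 876 in Y665F and rose by 2.59 (SE 0.41, edgeR adjusted p 0.000481). It was detected in 87.8% and 74.2% of thinned Y665F GMPs and 30.8% and 21.3% of WT GMPs, and in 54.5% and 64.3% of the Y665F and 3.45% and 11.9% of the WT barcodes with Cd79a. Ifitm3 and Isg15 rose by 1.16 and 1.04. All 3 share more than 10% of their words with other genes (11.6% for Ifitm1, 20.5% for Ifitm3 and 12.8% for Isg15). Irf7 fell by 1.05 (adjusted p 0.0497), but was 0.36 with the stricter gate and 0.0405 in thinned barcodes. The count changed when WT replicate 1 was left out, and it depended on the gate. Under the stricter gate 9 of 18 rose and 1 fell, beside 11.6% and 14.4% of the genes tested there.

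Of 20 immediate early and heat shock genes 3 rose and 1 fell (median 0.38), near the shares over all tested genes (9.21% and 11.8%). Egr1, Btg2 (1.73) and Jund (1.04) rose and Ier2 fell (−1.75). Of 16 endoplasmic reticulum folding genes 4 fell, the disulfide isomerase Pdia6 by 1.32, Sdf2l1 by 1.09, Creld2 by 0.93 and Herpud1 by 0.86, and Ddit3 rose by 1.27, in this list and the next 2 beside 9.21% that rose and 11.8% that fell of all tested genes. The median was −0.59, and the count of this list, like that over all tested genes, changed when 1 library was left out. Of 6 NADPH oxidase genes, which serve the oxidative burst, Rac2 fell by 1.46 from 477 and 385 CPM in WT to 191 and 142 CPM in Y665F, and Ncf4 by 1.30. Of 6 tested MHC class II genes, H2-DMb1 fell by 2.06 (31.4% of its words shared) and H2-Ab1 by 0.69 (adjusted p 0.473 with the length offset).

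**Figure D5:**
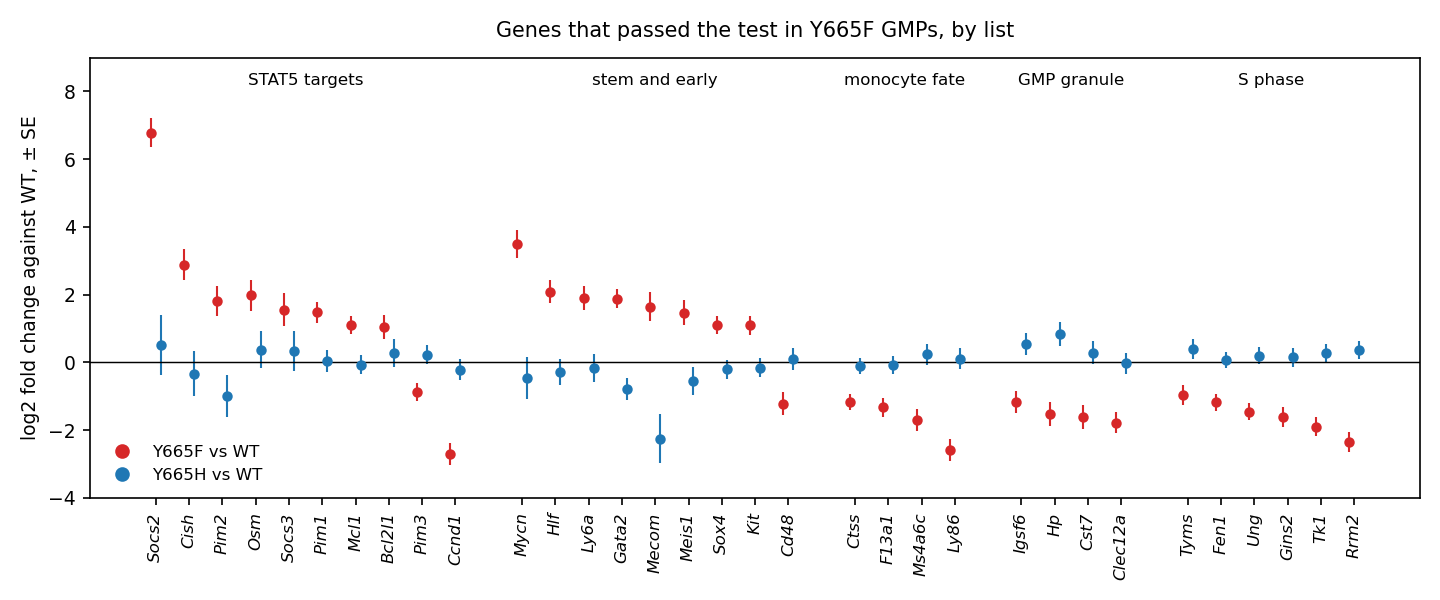
Log2 fold change against WT with its SE, in Y665F and in Y665H, of genes named in the text that passed in Y665F, by list (STAT5 targets, stem and early progenitor genes, monocyte fate genes, GMP granule genes and S phase genes). Genes were chosen as those that passed, so the plot shows the size of the Y665F changes (Socs2 at 6.78, Ly86 at −2.58), while no Y665H value passed the test, the farthest from 0 being Mecom at −2.25.

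Genes of other myeloid lineages, Prg2, Prss34, Pf4 and Itga2b, were among the 10 that rose most by the naming rule in Y665F against WT. Prg2, eosinophil major basic protein, stood at 0 and 2.22 CPM in the WT libraries, 1.66 and 2.40 in Y665H and 279 and 74.3 in Y665F (log2 fold change 6.87, SE 0.68, edgeR adjusted p 3.30e-06). Few cells carried it: after thinning it was detected in 1.36% and 2.53% of Y665F GMPs (unthinned 2.44% and 3.92%) and in 3 of 112 and 3 of 42 barcodes with Cd79a (2.68% and 7.14%). In the other kept barcodes of Y665F it stood at 88.4 and 35.8 CPM, below its level in GMPs of the same library, and in Gata1-positive barcodes at 2.15 and 10.6 CPM. Prss34, a protease of basophils and mast cells, stood at 2.68 and 7.28 CPM in the WT libraries, 1.04 and 0 in Y665H and 45.2 and 23.8 in Y665F and rose by 2.52. Of 17 listed eosinophil, basophil and mast cell genes 8 passed the filter on low counts, and of these Prg2, Prg3 (5.08), Prss34 and Gata2 rose, where 9.21% of all tested genes did, while Cpa3 did not pass the test (−0.11). Prg2 and others near 0 outside Y665F passed the filter through Y665F, so the count is no support for a rise of the list.

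Pf4, platelet factor 4, stood at 23.1 and 18.0 CPM in the WT libraries, 13.1 and 34.0 in Y665H and 107 and 425 in Y665F and rose by 3.57 (adjusted p 0.000248). In the other kept barcodes it was 83.2 and 159 CPM in WT and 614 and 769 CPM in Y665F, higher than in GMPs, and it was detected in 10.4% and 36.2% of thinned Y665F GMPs and in 15 of 112 and 17 of 42 barcodes with Cd79a (13.4% and 40.5%). The share in GMPs was thus not above that of the comparison barcodes, and the part of RNA from other cells was not tested. Itga2b, the platelet integrin CD41, stood at 9.12 and 4.75 CPM in the WT libraries, 3.95 and 6.52 in Y665H and 42.3 and 62.3 in Y665F and rose by 2.87, and Vwf by 2.97. F2r, a thrombin receptor, rose by 2.62 from 6.44 and 2.53 CPM in WT to 18.8 and 36.3 CPM in Y665F.

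Of 9 tested of 16 listed genes of later granules and neutrophil maturation 2 rose and 0 fell, beside 9.21% and 11.8% of all tested genes. Lcn2, lipocalin 2, rose by 2.20 from 3.75 and 4.43 CPM in WT to 23.3 and 18.7 CPM in Y665F, and Retnlg by 3.01 from 1.07 and 4.12 CPM in WT to 14.5 and 38.7 CPM in Y665F. Camp, the cathelicidin of secondary granules, was 3.22 and 45.3 CPM in the WT libraries, 4.78 and 1.72 in Y665H and 21.6 and 109.6 in Y665F and did not pass (1.07, adjusted p 0.214). WT replicate 2 held more Camp and Ngp (59.5 CPM) than replicate 1 (3.75 CPM), and the counts of the list changed when either WT library was left out.

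Markers of other cell types were summed over the GMPs of each library. Erythroid markers gave 643 and 599 CPM in the WT libraries, 792 and 1014 in Y665H and 337 and 620.5 in Y665F, with Alas2 at 0 in all of them. Megakaryocyte markers gave 41.8 and 31.3 CPM, 21.2 and 45.3 CPM, and 170.1 and 505 CPM, and mature neutrophil markers 24.7 and 135 CPM, 34.5 and 21.6 CPM, and 107 and 245 CPM. Both lists were highest in Y665F replicate 2, as were Pf4, Itga2b, Vwf and Retnlg, while Lcn2 was highest in Y665F replicate 1, where the neutrophil sum was below that of WT replicate 2. The part of these markers in the results was not tested. Monocyte and macrophage markers were lower in Y665F (254.6 and 244 CPM, against 599 to 696 CPM in the other libraries). Of the 4 tested, 2 fell, beside 11.8% of all tested genes. These were F13a1 and Ms4a6c, which are also on the list of fate genes. B lineage markers gave 147 to 233 CPM, T and NK cell markers 10.7 to 21.6 CPM, plasma cell markers 6.03 to 12.3 CPM and plasmacytoid dendritic cell markers 13.6 to 39.9 CPM (Klk1 at 0 in all). Of 6 tested B lineage markers, Vpreb1, Vpreb3 and Ebf1 rose and Cd79b and Ighm fell, beside 9.21% and 11.8% of all tested genes. Ribosomal protein genes took 26.0% and 28.3% of the UMIs of GMPs in WT, 27.4% and 28.6% in Y665H and 32.2% and 30.8% in Y665F. Neat1, a nuclear RNA, stood at 23.1 and 17.1 CPM in the WT libraries, 12.9 and 13.7 in Y665H and 35.0 and 54.6 in Y665F, so that both Y665F libraries were highest. Malat1, also a nuclear RNA, stood at 8437 and 4880.2 CPM in the WT libraries, 4582 and 4410.1 in Y665H and 5787 and 5682 in Y665F, and was highest in WT replicate 1. The part of these RNAs' shares in the results was not tested.

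Among the 10 genes that fell most by the naming rule, 4 are predicted genes (Gm46620, Gm4316, Gm43305 and Gm42031), and Ugt1a7c shares 55.7% of its words with other genes. Gm46620 stood at 87.4 and 84.5 CPM in the WT libraries, 58.0 and 58.7 in Y665H and 7.40 and 4.66 in Y665F and fell by 3.94 (SE 0.29, edgeR adjusted p 2.62e-08), with 90.2% of its words found in another gene. Aldoa, the glycolytic enzyme aldolase A, stood at 735 and 917 CPM in the WT libraries, 1000.4 and 727 in Y665H and 215 and 112 in Y665F and fell by 2.46 (adjusted p 0.000463, 17.0% shared). Taf9, of the general transcription factor TFIID, fell by 2.42 from 37.0 and 42.7 CPM in WT to 11.5 and 4.75 CPM in Y665F (70.7% shared). The counts of genes with shared sequence depend on how reads were assigned, which was not tested here. Gm46620, Gm4316 and Taf9 kept direction and call in 18 of 18 other settings, and Aldoa in 18 of 19. Settings that did not test a gene are not counted here, such as leaving out genes with shared words. All settings used the same deposited counts, so they do not bear on how reads were assigned. Of the genes that rose most, Gm10076 (84.2% shared, 2.41) is of the same kind. The promoter windows of the 10 highest held TTCNNNGAA in 0 of 7 with a window, and those of the 10 lowest in 1 of 8 genes (Gm4316), beside 9.55% of all 27025 genes.

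Y665H GMPs gave no gene past the threshold. All lists had 0 genes that passed. Medians lay between −0.44 (later granule genes) and 0.34 (immediate early and heat shock genes), against −0.01 over all tested genes, for the lists other than cell type markers. Markers of mature neutrophils had a median of −1.46 (8 genes tested) and erythroid markers of 0.67 (7 genes tested). The STAT5 targets had a median of −0.07 and the stem and multipotent progenitor genes of −0.38. Cish was −0.33 (SE 0.66), Pim1 0.04 (SE 0.32) and Socs2 0.51 (SE 0.89), with wide errors for the low counts of Cish and Socs2. Gata2 was −0.77 (SE 0.33), Flt3 −0.66 (SE 0.27) and Hp 0.83 (SE 0.35), all with an edgeR adjusted p of 0.977. DESeq2 also called 0 genes, with 186 at an unadjusted p under 0.05. The 2 WT libraries differed from each other, and without WT replicate 2 edgeR called 282 genes in Y665H, without WT replicate 1 it called 3, and without Y665F replicate 1 or 2 it called 10 and 9. With all 6 libraries and no filter on low counts it called 13. A count of 0 does not show that Y665H and WT GMPs are alike.

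Y665F against Y665H uses the same Y665F libraries as the comparison with WT. Of 3849 genes that passed, 1228 were higher (11.4%) and 1075 lower (10.0%) by more than 1 on the log2 scale. Without Y665H replicate 1 the count was 1144, without Y665F replicate 2 it was 1671 and without Y665H replicate 2 it was 2107, and with the 1% gate it was 2232 (27.6%). Socs2 (6.27, SE 0.38, edgeR adjusted p 1.38e-09), Prg2 (6.21), Prss34 (5.43), Mycn (3.96), Pf4 (3.18) and Itga2b (3.06) were among the 10 that rose most. Retnlg was at 0 UMIs in both Y665H libraries and at 601 in Y665F, which makes it at least 68.9-fold higher, counted against 3 UMIs over the group. Camp was higher by 3.89 (adjusted p 0.00107), Serpina3g, a protease inhibitor gene, by 3.28 and Dst by 3.81. Of the lower genes, Rrm2 (−2.72), Ly86 (−2.70), Aldoa (−2.69), Nutf2 (−2.61), Ap3s1 (−2.55) and Gdf3 (−2.54, high in replicate 1 of WT and Y665H) were among the 10 lowest. By list, with 18.0% of all tested genes higher and 17.9% lower, 13 of 20 stem and multipotent progenitor genes were higher and 2 lower (median 1.34, against 0.07 over all tested genes), 7 of 18 STAT5 targets were higher and 2 lower (median 0.71), 0 monocyte and dendritic cell fate genes were higher and 6 of 14 lower (median −0.71), 0 endoplasmic reticulum folding genes were higher and 10 of 16 lower (median −0.86), and 0 S phase genes were higher and 6 of 20 lower (median −0.22). Here too some stem and STAT5 genes passed the filter on low counts through Y665F, so these counts are no support for a rise of either list.

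Whether the Y665F change differed between GMPs and other progenitors was tested as an interaction, with library as a block. The first comparison was with 329 early progenitors (a UMI of Kit and of Cd34, none of the granule genes Elane, Prtn3 and Ctsg, fewer than 2 of Mpo), of which WT gave 12 and 42 barcodes. Of 9459 genes, 1 passed (0.0106%). This was Gng12, a G protein subunit, with a difference of −2.63 (SE 0.58, edgeR adjusted p 0.0466). It was lower in Y665F GMPs (138 and 109 CPM, against 217 and 403 CPM in WT). In early progenitors it stood at 78.7 and 132 CPM in Y665F, 39.9 and 77.6 CPM in WT and 95.4 and 142 CPM in Y665H. The WT values there rest on very few UMIs. The count was 0 without the library block, 0 without either Y665F library or Y665H replicate 1, 4 without WT replicate 1 and 59 without WT replicate 2. The second was with 6498 barcodes with Gata1, added after the data were seen. These had a UMI of Gata1, fewer than 3 of the granule genes and none of Cd79a or Csf1r. In this comparison 109 of 11335 genes passed (0.962%), 23 with a higher (0.203%) and 86 with a lower change (0.759%) in GMPs. Ctse, the protease cathepsin E, was lower in Y665F Gata1-positive barcodes (190.5 and 138 CPM in WT, 36.4 and 30.9 CPM in Y665F) and stood at 12.3 and 7.91 CPM in WT and 6.50 and 7.74 CPM in Y665F GMPs. The 109 fell to 0 without WT replicate 1, to 3 without WT replicate 2 and to 0 without the block, and were 222, 253 and 969 without Y665H replicate 1, Y665H replicate 2 and Y665F replicate 1. For Y665H against WT, 0 genes differed in either test (250 and 170 at an unadjusted p under 0.05 in edgeR).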

How the data were processed

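Per the file headers and labels, the authors deposited filtered 10x gene by barcode matrices of UMI counts, not normalized (Cell Ranger 6.0.0 in the BM headers; the submitters' processing notes name Cell Ranger 5.0, Seurat 4.0 and mm10). Thresholds of any filter by the authors are not given in the sources used here.

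Barcodes were read with Python 3.11.15, and UMI counts of GMPs were summed per library and tested in R 4.3.3 with edgeR 4.0.16 (TMM, filterByExpr, quasi-likelihood F test, 3 genotypes in 1 model, Benjamini-Hochberg adjustment over all tested genes). SE is the log2 fold change divided by the root of F. Library totals were 16399123 to 55768078 UMIs. Gate genes counted in library sizes but were not tested. No barcode was removed as a doublet. In an alternative, the barcodes most like simulated doublets were left out, at a share fixed beforehand (0.8% per 1000 kept barcodes). They made up 4.11% to 21.1% of GMPs, which follows in part from the fixed share and is not a measured doublet rate. Alternatives also covered DESeq2 1.42.0, RLE, a replicate block, low-count filters, gates, depth (1200 UMIs at least, or thinning to 2000), leaving out each library and, chosen after the data were seen, the gate of 1%, Gata1-positive barcodes, a length offset and leaving out genes with shared words. On simulated counts of 10457 genes edgeR recovered 63 of 89 genes changed by 1 on the log2 scale and 110 of 111 changed by 2, with 6 false calls in Y665F against WT. For a simulated interaction of 12307 genes it recovered 23 of 89 and 108 of 111, with 13 false calls. In both simulations every gene had the same spread, and only well-counted genes were changed. The second class of the interaction had the depth of all other kept barcodes, not that of the classes compared here. These rates therefore do not carry over to the data.

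Members, lists and comparisons were chosen with earlier results of these data known. Named genes were the gate genes, Stat5a and Stat5b, members of 25 lists, and in each comparison the 10 with the largest change in each direction among those that passed, did not overlap between genotypes and reached 20 CPM, without sex-linked, mitochondrial, immunoglobulin, T cell receptor and hemoglobin genes. A listed gene that is withheld counts in its list and is not reported here. For interactions the 5 largest in each direction were named among those that passed and averaged at least 20 CPM over the 6 libraries of either class. Interactions with neutrophil and monocyte barcodes were not run, since WT libraries held 0 to 3 of either. RefSeq promoters and GENCODE vM21 gave sequences and lengths.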

Additional observations from a re-analysis of the deposited data

Results flagged for a closer look

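The difference between GMPs and other progenitors in the change from WT to Y665F was called for 1 gene against early progenitors and for 109 genes against Gata1-positive barcodes, by edgeR's interaction test. Gng12 (difference −2.63, edgeR adjusted p 0.0466) was the gene of the first comparison, and its WT level in early progenitors rests on very few UMIs.

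Of the 109, the named genes with a higher change in GMPs were Lmna (2.27), Isg20 (2.01), Car2 (1.96), Sdsl (1.92) and Ctse (1.91). Car2, carbonic anhydrase 2, stood at 2709 and 2319 CPM in WT and 1113 and 731 CPM in Y665F Gata1-positive barcodes, and at 239.7 and 152 CPM in WT and 176 and 334 CPM in Y665F GMPs. Lmna, lamin A, stood at 81.9 and 38.9 CPM and 23.9 and 28.5 CPM in Gata1-positive barcodes, and below 5 CPM in every GMP library. Erythroid markers summed to 6052 and 6689 CPM in the WT barcodes outside GMPs and to 1346 and 985 CPM in Y665F. Gata1-positive barcodes numbered 552 and 1361 of 3866 and 10289 kept barcodes in WT. In Y665F they numbered 861 and 716 of 16814 and 18711. The part of this mix of cells in the differences was not tested.

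Those with a lower change in GMPs were Camp (−5.59), Ngp (−4.32), Mgst1 (−3.25), Lbp (−2.97) and Gria3 (−2.87). Camp, a neutrophil granule gene, stood at 0.182 and 1.61 CPM in WT and 99.9 and 81.6 CPM in Y665F Gata1-positive barcodes, and at 3.22 and 45.3 CPM in WT and 21.6 and 110 CPM in Y665F GMPs. Mgst1, a glutathione transferase, stood at 0.910 and 2.501 CPM in WT and 9.04 and 18.8 CPM in Y665F Gata1-positive barcodes, against 55.8 and 112 CPM in WT and 74.9 and 48.7 CPM in Y665F GMPs. Mature neutrophil markers summed to 1711 and 573 CPM in the Y665F barcodes outside GMPs and to 6.62 and 70.6 CPM in WT, and their part in these differences was not tested.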

How the results depend on the processing

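Of 114 gene comparisons named and called, 62 kept direction and call in every alternative that tested the gene, and only Irf7 in Y665F against WT turned its sign (0.36 with the stricter gate, 0.0405 in thinned barcodes). An alternative that did not test a gene was not counted for it, such as leaving out genes with shared words. Of the genes named in Y665F against WT, those that kept their call in at most 12 alternatives were Bcl2l1 (5 of 18), Kif11 (7 of 19), H2-Ab1 (9 of 19), Klf2 (10 of 19), Irf7 (10 of 18), Pim3 (11 of 19), Vpreb1 (12 of 17), and Creld2, Cbl and Cebpa (12 of 19 each). For Y665F against WT, DESeq2 gave 1377 genes, the gate of 1% gave 1443, and leaving out 1 library gave 670 to 3083. For Y665H against WT, no filter on low counts gave 13 and leaving out 1 library 0 to 282. For Y665F against Y665H, the gate of 1% gave 2232 and leaving out 1 library 1144 to 4882. The causes were not tested. The difference in GMP share between Y665F and WT turned to −0.371 and, thinned, −1.24 percentage points with the gate of 1%, and was 4.33 to 7.75 and 1.46 to 5.93 points without 1 library. Differences in change from early progenitors numbered 0 without the library block and, without 1 library, 0 to 59 for Y665F and 0 to 32 for Y665H. Those from Gata1-positive barcodes numbered 0 without the library block, and 0 to 969 for Y665F and 0 to 3 for Y665H without 1 library.

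The replicate number goes with the female or male type of the library, but the labels give no shared litter, batch or day, and it was not used to pair. Deviations from the genotype means correlated by 0.165 between WT and Y665H, −0.0876 between WT and Y665F and 0.236 between Y665H and Y665F. With a replicate block the counts were 2367, 0 and 3909 genes, and the shares differed by 6.04 and 3.69 points (exact permutation p = 0.222 and 0.611, where 36 arrangements allow 0.0556 at the smallest).

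With 2 libraries a genotype and 414 GMPs in WT replicate 1, the smallest library, modest differences can be missed.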
